A study of Mus musculus with 6 samples.

Results

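Cdo1 and 9 other genes of cysteine and taurine metabolism were examined in cultured mouse synoviocytes that had received the transcription factor gene Epas1 by adenovirus. The genes were taken as a list, and each was read from a probe set that the platform annotation assigns to that gene alone. Of the 10 listed genes, 9 had such a probe set, each of them 1, among 22180 genes with a probe set in all. Mat2a, which makes S-adenosylmethionine from methionine, was not analysed here. The list was chosen by the difference of Cdo1 between the groups, which was already known from these arrays, so its levels are given as a description with no test. The other members were added for their place in the pathway, with results of these arrays also known, and their tests are not independent evidence.

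By their labels, the arrays were made from fibroblast-like synoviocytes, the connective tissue cells that line the joint, grown from the knee synovium of C57BL6 mice. Ad-Epas1 (3 arrays) denotes cells infected with an adenovirus carrying Epas1, and Mock (3 arrays) denotes cells infected with the same kind of virus without an insert. Both groups were thus infected, at a multiplicity of infection of 800 for 2 h, cultured for 24 h and used between passages 4 and 8, and the age and sex of the mice are not stated in the labels. The replicates are labelled biological, but not as separate animals or dishes, and a p-value therefore reflects only how these 6 samples spread, which may in part be technical.

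Cdo1 encodes cysteine dioxygenase, an iron enzyme that uses molecular oxygen to turn cysteine into cysteine sulfinate, and it is abundant in liver and fat. Cysteine sulfinate has 2 main fates: Csad decarboxylates it to hypotaurine, the precursor of taurine, and the aminotransferase Got1 converts it to a product that releases sulfite, which Suox oxidises to sulfate. Cysteine itself is made from homocysteine by Cbs and Cth, which can also release hydrogen sulfide. Mpst moves sulfur onto acceptors as persulfides, Ethe1 uses oxygen to oxidise persulfides in mitochondria, and Slc6a6 carries taurine into the cell.

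Values are log2 expression levels after RMA, 1 per array. The delivered gene checked the labels: Epas1 had 13.14, 13.15 and 13.11 in Ad-Epas1 replicates 1, 2 and 3, against 8.67, 8.71 and 8.51 in Mock replicates 1, 2 and 3. Across all 22180 genes, 16.3% passed an adjusted p of 0.05 (limma), 6.57% as rises and 9.75% as falls in Ad-Epas1, and the median log2 fold change was 0.05. All 9 measured members lay on every array above 6.62, the 95th percentile of the levels of 1394 olfactory and vomeronasal receptor genes, used here as a background level.

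The array of Ad-Epas1 replicate 3 stood apart from the others in its macrophage transcripts. The labels give over 90% CD90+ and under 1% CD14+ cells by flow cytometry, and all 11 fibroblast markers were above 6.62 on the other 5 arrays and 10 of 11 on Ad-Epas1 replicate 3. Of 15 macrophage markers, 14 were above 6.62 on those 5 arrays, and 14 of 15 had their lowest level on Ad-Epas1 replicate 3. Lyz2 measured 12.86 and 12.78 in Ad-Epas1 replicates 1 and 2, and 12.94, 12.81 and 12.75 in Mock replicates 1, 2 and 3. Cd14 measured 11.92 and 11.40 in Ad-Epas1 replicates 1 and 2, and 10.42, 9.99 and 10.14 in Mock replicates 1, 2 and 3. On those 5 arrays these levels were high for a label of under 1% CD14+ cells, and the reason was not tested. On Ad-Epas1 replicate 3 the pan-leukocyte marker Ptprc (5.76) and the macrophage markers Adgre1 (5.89) and Itgam (6.10) were below 6.62. There Lyz2 stood at 7.15, Cd14 at 8.62 and Cd68 at 10.17. Summed over the 15 markers on the linear scale, the level was 38260, 33120 and 3175 in Ad-Epas1 replicates 1, 2 and 3, and between 35340 and 43440 in Mock. The markers also differed between the groups on the remaining arrays: without Ad-Epas1 replicate 3, 5 of the 15 fell, which were Mrc1 (-2.36, adjusted p = 0.0022), C1qa (-1.65), C1qc (-1.51), C1qb (-0.95) and Aif1 (-0.53), and Cd14 rose by 1.48 (adjusted p = 0.0025). In that comparison 14.0% of all genes fell and 10.3% rose. The summed level of the 11 fibroblast markers was 41750, 41980 and 49060 in Ad-Epas1 replicates 1, 2 and 3, and between 47200 and 49360 in Mock. Without Ad-Epas1 replicate 3, 5 of these 11 fell (Thy1, Col1a1, Col1a2, Col3a1 and Pdgfrb, log2 fold changes from -1.36 to -0.59) and Prg4 rose by 0.59, again beside 14.0% and 10.3% of all genes. Over all arrays 2 of the 11 fell and 1 rose, where 9.75% of all genes fell and 6.57% rose. In bulk RNA, fewer cells of a type and less RNA per cell cannot be told apart. Where leaving out Ad-Epas1 replicate 3 changed the call of a gene named below, both values are given.

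Cdo1 was the member with the widest separation between the groups. It measured 8.15, 8.62 and 9.88 in Ad-Epas1 replicates 1, 2 and 3, against 11.81, 12.25 and 12.25 in Mock replicates 1, 2 and 3 (probe set 17354282). The groups did not overlap, and the gap between the highest Ad-Epas1 array and the lowest Mock array was 1.93 on the log2 scale. The group means were 8.88 ± 0.89 in Ad-Epas1 and 12.10 ± 0.25 in Mock (SD, n = 3 each), a 9.31-fold lower level in Ad-Epas1. Only 5 of the 22180 genes had a lower log2 fold change than Cdo1, which had -3.22.

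The size of the Cdo1 difference varied among the Ad-Epas1 arrays. Against the Mock mean, the level was 15.5-fold lower in replicate 1, 11.2-fold lower in replicate 2 and 4.67-fold lower in replicate 3. Replicate 3 was thus the highest of its group for Cdo1, by 1.49 over the mean of the other two, a departure larger than that of 98.5% of all genes on this array. Leaving out 1 array at a time moved the log2 fold change between -3.72, when Ad-Epas1 replicate 3 was absent, and -2.85, when Ad-Epas1 replicate 1 was. Within Mock, replicate 1 was lower than the mean of replicates 2 and 3 by 0.44, and it held the lowest Mock level. On the Ad-Epas1 array with the highest Cdo1 level the macrophage transcripts were low and the summed fibroblast markers were the highest of the group, and their part in the spread was not tested. Among 7 measured markers of adipocytes, a cell type known for Cdo1, 3 were above 6.62 on all 6 arrays, which were Plin1, Fabp4 and Pparg. Adipoq was below 6.62 on all 6 arrays. The summed level of the 7 markers was 1079 to 1421 in Ad-Epas1 and 1061 to 1165 in Mock. Within that sum the members went opposite ways: Pparg, the adipocyte transcription factor gene, fell by 1.12 (adjusted p = 0.0051), with 7.55, 7.55 and 7.48 in Ad-Epas1 replicates 1, 2 and 3, against 8.31, 8.84 and 8.80 in Mock replicates 1, 2 and 3. Fabp4 differed by 1.17 (adjusted p = 0.063) and rose by 1.42 without Ad-Epas1 replicate 3 (adjusted p = 0.022). The part of these cells in the Cdo1 difference was not tested.

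**Figure D1:**
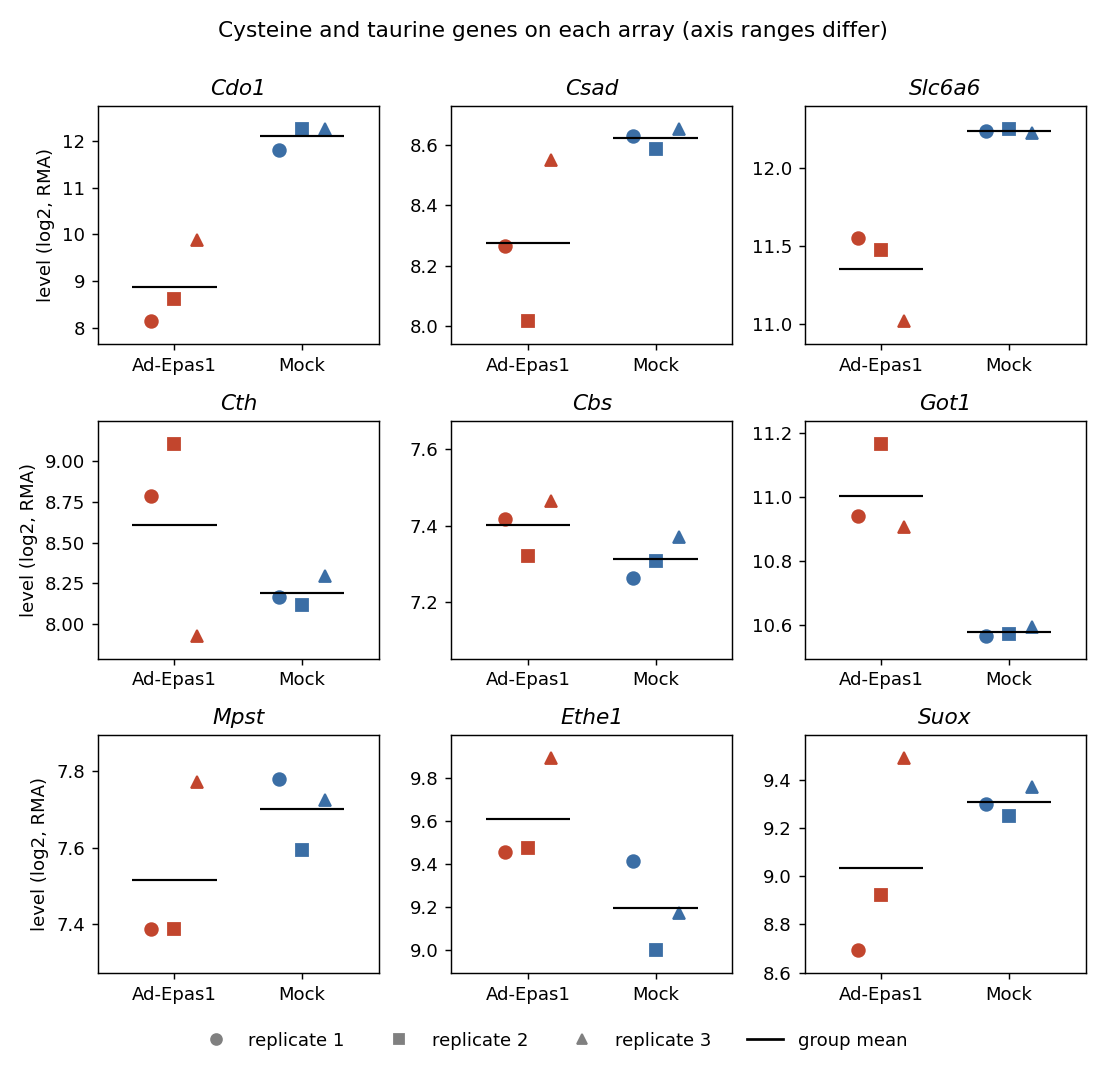
Level of each of the 9 measured genes on each array (log2, RMA), with Ad-Epas1 on the left and Mock on the right of every panel; marker shapes give the replicate number, horizontal lines the group means, and axis ranges differ between panels. Cdo1, Slc6a6 and Got1 show wide gaps between the groups, while Ad-Epas1 replicate 3 lies near or beyond the Mock arrays for Csad, Cth, Mpst and Suox.

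Of the 8 members other than Cdo1, 1 rose, 1 fell and 6 did not pass, where 16.3% of all genes passed in either direction. The median log2 fold change of these 8 was -0.05. The groups did not overlap for 4 of the 8, which were Csad, Slc6a6, Got1 and Ethe1, where 39.7% of all genes had groups that did not overlap. Neither count was far from its share among all genes.

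The taurine transporter gene Slc6a6 fell 1.85-fold in Ad-Epas1. It measured 11.55, 11.48 and 11.02 in Ad-Epas1 replicates 1, 2 and 3, against 12.24, 12.25 and 12.22 in Mock replicates 1, 2 and 3. All 3 Ad-Epas1 arrays lay below all 3 Mock arrays, and the Mock arrays were nearly equal (SD 0.01, against 0.29 in Ad-Epas1). The log2 fold change was -0.89 with an SE of 0.14 and a 95% interval from -1.22 to -0.55 (limma, adjusted p = 0.0097). In contrast to Cdo1, Slc6a6 was lowest on Ad-Epas1 replicate 3, and without that array the log2 fold change was -0.72 (adjusted p = 0.0010). Without Mock replicate 2 it was -0.88 and just missed the threshold (adjusted p = 0.05002).

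Csad, which acts on the product of Cdo1 on the way to taurine, had levels of 8.26, 8.02 and 8.55 in Ad-Epas1 replicates 1, 2 and 3, against 8.63, 8.59 and 8.65 in Mock replicates 1, 2 and 3. The groups were separated by 0.04 only, since Ad-Epas1 replicate 3 was close to Mock. The log2 fold change of -0.35 (SE 0.13, 95% interval from -0.66 to -0.03) did not pass over all arrays (adjusted p = 0.13). Without Ad-Epas1 replicate 3, Csad fell by 0.48 (adjusted p = 0.012).

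Got1, which carries cysteine sulfinate towards sulfite and otherwise moves amino groups between aspartate and glutamate, was the member that rose. It measured 10.94, 11.17 and 10.91 in Ad-Epas1 replicates 1, 2 and 3, against 10.57, 10.57 and 10.59 in Mock replicates 1, 2 and 3. The groups did not overlap and the rise was small, 1.34-fold, with a log2 fold change of 0.43, an SE of 0.09 and a 95% interval from 0.22 to 0.63 (adjusted p = 0.020). The call was lost without Ad-Epas1 replicate 2 (adjusted p = 0.0505), Mock replicate 1 (0.055), Mock replicate 2 (0.085) or Mock replicate 3 (0.079), while the log2 fold change stayed between 0.35 and 0.48. Got1 hardly departed on Ad-Epas1 replicate 3, where 51.1% of all genes had a smaller departure.

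The transsulfuration genes Cth and Cbs supply cysteine, and neither passed the test over all arrays. Cth measured 8.79, 9.10 and 7.93 in Ad-Epas1 replicates 1, 2 and 3, against 8.17, 8.12 and 8.29 in Mock replicates 1, 2 and 3. Both the highest and the lowest of the 6 levels were thus in Ad-Epas1, and replicate 3 lay 1.01 below the mean of the other two, further than 97.4% of genes. The log2 fold change of 0.41 had an SE of 0.28 (adjusted p = 0.35), and without Ad-Epas1 replicate 3 Cth rose by 0.75 (SE 0.11, adjusted p = 0.0050). Cbs measured 7.42, 7.32 and 7.46 in Ad-Epas1 replicates 1, 2 and 3, against 7.26, 7.31 and 7.37 in Mock replicates 1, 2 and 3, with groups that overlapped. Its difference of 0.09 had a 95% interval from -0.08 to 0.26 (adjusted p = 0.43), and leaving out any 1 array did not bring it past the threshold.

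Among the genes of sulfite, persulfide and sulfide handling, none passed over all arrays. Suox, the sulfite oxidase gene, measured 8.69, 8.92 and 9.49 in Ad-Epas1 replicates 1, 2 and 3, against 9.30, 9.25 and 9.37 in Mock replicates 1, 2 and 3. Its highest and its lowest level were both in Ad-Epas1. The log2 fold change was -0.27 (SE 0.19, adjusted p = 0.37), and without Ad-Epas1 replicate 3 Suox fell by 0.50 (adjusted p = 0.010). Mpst, the mercaptopyruvate sulfurtransferase gene, measured 7.39, 7.39 and 7.77 in Ad-Epas1 replicates 1, 2 and 3, against 7.78, 7.60 and 7.73 in Mock replicates 1, 2 and 3. The groups overlapped through Ad-Epas1 replicate 3, with a log2 fold change of -0.18 (SE 0.12, adjusted p = 0.34) over all arrays and of -0.31 without that array (adjusted p = 0.036). Ethe1, which like Cdo1 needs oxygen for its reaction, measured 9.46, 9.48 and 9.89 in Ad-Epas1 replicates 1, 2 and 3, against 9.41, 9.0 and 9.17 in Mock replicates 1, 2 and 3. The groups were 0.04 apart, and the log2 fold change of 0.41 (SE 0.15, 95% interval from 0.04 to 0.78) did not pass (adjusted p = 0.12). Unlike Cth, Suox and Mpst, it did not pass without Ad-Epas1 replicate 3 either (0.27, adjusted p = 0.17), and it passed when Mock replicate 1 was left out as well (0.38, adjusted p = 0.026), a comparison in which 27.1% of all genes and 6 of the 8 members passed.

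The members thus differed in how Ad-Epas1 replicate 3 related to the other two arrays of its group. For Cth, Mpst and Suox it lay on the other side of the Mock mean from replicates 1 and 2, and for Csad it lay between them and Mock. For Cdo1 and Got1 it kept the direction with a smaller difference from the Mock mean, and for Slc6a6, Ethe1 and Cbs with a larger one. Without this array, 6 of the 8 members passed, with Cth and Got1 rising and Csad, Mpst, Slc6a6 and Suox falling, where 24.3% of all genes passed in that comparison, 10.3% as rises and 14.0% as falls. Macrophage markers were low on the same array, as given above, and their part in these differences was not tested.

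**Figure D2:**
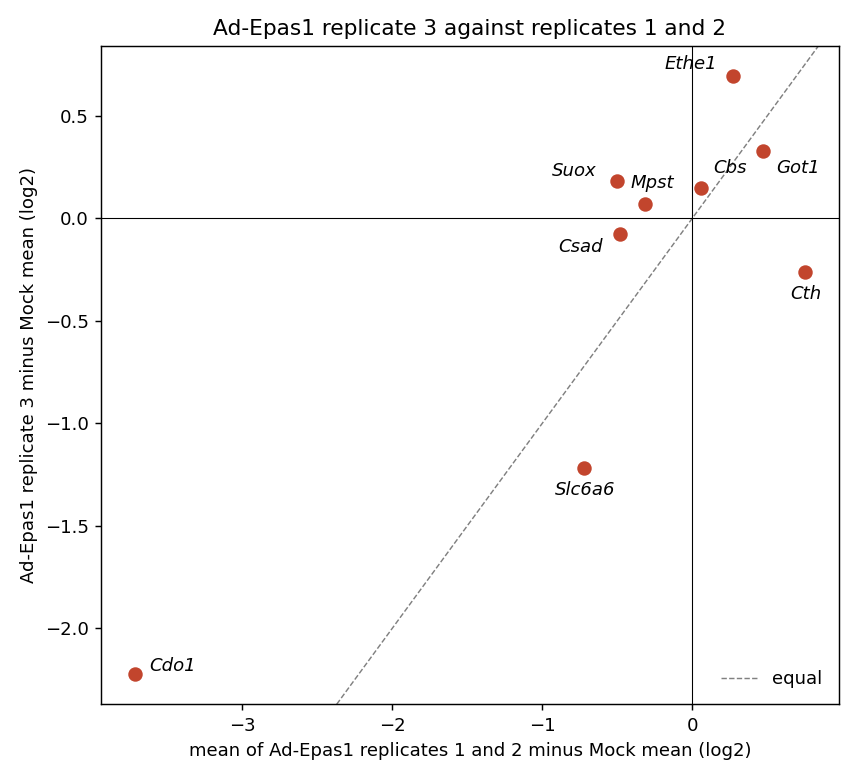
Difference from the Mock mean (log2) of Ad-Epas1 replicate 3 on the vertical axis and of the mean of Ad-Epas1 replicates 1 and 2 on the horizontal axis, with 1 point per gene; the dashed line marks equal differences. Cdo1 (-2.22 against -3.72) and Slc6a6 (-1.22 against -0.72) are negative on both axes, and Cth (-0.26 against 0.75) lies across the zero line from replicates 1 and 2.

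RefSeq promoter windows (GRCm38.p6) were at hand for 6 of the 9 members, which were Csad, Cbs, Got1, Mpst, Ethe1 and Suox, with 10 windows in all. The 250 bases before each start were searched on both strands for ACGTG and GCGTG, the core of the element that HIF proteins bind, for TGATGNAA, a form of the element bound by ATF4, and for TGACNNNGC, the core of the antioxidant element bound by Nrf2. Got1 is shown as the member that rose, Csad as the partner enzyme of Cdo1, and Cbs as a member whose difference did not pass. Capitals mark the matches, the strand is that of the gene, and positions count back from the base before the start, which is -1.
Got1, chr19:43524606-43524855, minus strand: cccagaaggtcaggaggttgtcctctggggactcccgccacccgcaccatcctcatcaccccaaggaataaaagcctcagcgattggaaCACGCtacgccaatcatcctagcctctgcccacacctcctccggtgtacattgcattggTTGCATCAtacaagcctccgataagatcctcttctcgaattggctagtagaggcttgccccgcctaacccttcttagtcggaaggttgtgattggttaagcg
Csad, chr15:102205053-102205302, minus strand: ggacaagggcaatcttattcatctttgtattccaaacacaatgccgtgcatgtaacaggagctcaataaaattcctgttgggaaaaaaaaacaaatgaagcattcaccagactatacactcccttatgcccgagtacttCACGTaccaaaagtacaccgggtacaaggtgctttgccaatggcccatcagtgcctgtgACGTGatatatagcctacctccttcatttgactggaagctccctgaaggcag
Cbs, chr17:31637206-31637455, minus strand: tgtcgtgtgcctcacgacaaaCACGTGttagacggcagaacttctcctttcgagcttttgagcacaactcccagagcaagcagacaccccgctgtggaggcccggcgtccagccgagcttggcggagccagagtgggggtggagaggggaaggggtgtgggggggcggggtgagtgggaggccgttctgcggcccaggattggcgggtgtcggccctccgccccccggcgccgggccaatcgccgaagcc

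The Got1 window held GCGTG on the opposite strand with its first base at -161 and TGATGNAA on the opposite strand from -102. The Csad window, 1 of 2 for this gene, held ACGTG from -52 and on the opposite strand from -111. In Cbs, ACGTG from -228 and its reverse from -229 overlapped in 1 palindrome. At least 1 of ACGTG and GCGTG stood in 6 of the 10 member windows and in 38.6% of all 32851 windows of the same length. TGATGNAA stood in 1 member window and in 3.45% of all windows, and TGACNNNGC in 1 member window, that of Mpst, and in 10.2% of all. These matches are letters in the windows and say nothing of binding, and their part in any difference was not tested.

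The other genes of sulfur amino acid metabolism and its neighbours were read from 9 lists written with earlier results of these arrays known. Of 96 different genes measured, 10 rose, 25 fell and the rest did not pass, 36.5% called in all beside 16.3% of all genes. Their median log2 fold change was -0.09 beside 0.05 over all genes. The share over all genes takes in genes of low level, since no filter on level was used. With only genes above the median level tested, 3558 genes passed, beside 3620 without that filter, and 42 pathway genes passed. That filter drops the lower part of the 22180 genes, so the share called among genes above the median level was much higher than 16.3%. For genes of that level, 16.3% is thus a low reference. The number of pathway genes that the filter kept was not counted. An excess over genes of like level was not tested, here or for the single lists below. The number called among the 96 genes varied with the arrays, and so did the share over all genes. It was 35 over all arrays. On leaving out 1 Ad-Epas1 array it became 24 for replicate 1 (9.86% of all genes called), 16 for replicate 2 (6.82%) and 51 for replicate 3 (24.3%). On leaving out 1 Mock array it became 27 for replicate 1 (12.6%), 11 for replicate 2 (5.35%) and 10 for replicate 3 (5.32%).

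Genes of the methionine cycle and its salvage route moved down where they passed. Of 16 measured, 6 fell and none rose, with a median of -0.25, where 9.75% of all genes fell and 6.57% rose. Mtr, methionine synthase, measured 8.01, 8.01 and 7.95 in Ad-Epas1 replicates 1, 2 and 3, against 8.51, 8.55 and 8.58 in Mock replicates 1, 2 and 3, and fell by 0.56 (adjusted p = 0.0033). The salvage genes Mtap (-0.52, adjusted p = 0.0079) and Mri1 (-0.36, adjusted p = 0.013) and the spermidine synthase gene Srm (-1.05, adjusted p = 0.015) fell too, all as log2 fold changes. Ahcy, which makes homocysteine, differed by -0.46 (adjusted p = 0.097) and fell by 0.58 without Ad-Epas1 replicate 3 (adjusted p = 0.029), and Mat2b, the regulatory partner of Mat2a, by -0.18 (adjusted p = 0.13). Without Ad-Epas1 replicate 3, 8 of the 16 fell and 1 rose, where 14.0% of all genes fell and 10.3% rose.

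Among the other genes of cysteine oxidation and taurine, 2 of 10 fell and none rose, where 9.75% of all genes fell and 6.57% rose. Ado, which like Cdo1 is an iron-dependent thiol dioxygenase and makes hypotaurine from cysteamine, measured 8.71, 8.64 and 8.54 in Ad-Epas1 replicates 1, 2 and 3, against 9.06, 9.01 and 9.02 in Mock replicates 1, 2 and 3. It fell by 0.40 (SE 0.07, adjusted p = 0.014). Pter, whose enzyme breaks down N-acetyltaurine, fell by 0.92 (adjusted p = 0.038), and Gadl1, a relative of Csad, differed by -0.11 (adjusted p = 0.42). Of 8 genes of sulfide oxidation and persulfides, 1 rose and none fell: Selenbp1, which encodes methanethiol oxidase, had 9.56, 9.62 and 9.93 in Ad-Epas1 replicates 1, 2 and 3, against 8.33, 8.36 and 7.94 in Mock replicates 1, 2 and 3. This was a 2.81-fold rise (log2 fold change 1.49, SE 0.15, adjusted p = 0.0023). The sulfide quinone oxidoreductase gene Sqor, which precedes Ethe1 in sulfide oxidation, differed by 0.31 (adjusted p = 0.061), and the rhodanese gene Tst by -0.01 (adjusted p = 0.96). In the list of molybdenum cofactor and sulfate genes, which holds the cofactor pathway that Suox depends on, 1 of 10 passed, Papss1, an enzyme that activates sulfate, which fell by 0.49 (adjusted p = 0.013). Without Ad-Epas1 replicate 3, 2 of these 10 rose and 2 fell, 1 of the 8 sulfide and persulfide genes rose and 1 fell, and 1 of the 10 genes of cysteine oxidation and taurine rose and 2 fell. In that comparison 10.3% of all genes rose and 14.0% fell. Counts of 1 or 2 in lists this short were near the shares over all genes.

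The routes that bring cystine into the cell and use cysteine for glutathione moved in both directions. Of 19 measured genes, 4 rose and 3 fell, where 6.57% of all genes rose and 9.75% fell. Slc7a11, the cystine importer, measured 12.01, 11.92 and 9.15 in Ad-Epas1 replicates 1, 2 and 3, against 8.18, 7.23 and 7.24 in Mock replicates 1, 2 and 3. It was higher on all Ad-Epas1 arrays, least so on replicate 3 (log2 fold change 3.48, SE 0.76, adjusted p = 0.026), and its change was 4.41 without that array (adjusted p = 0.00033). Slc7a11 had 2 probe sets, the only called gene named from the lists with more than 1, and these values are from the brighter. With the mean over probe sets, 1 named gene lost its call. This was Slc7a11, the only called one whose level that setting changes, so its call rested on the brighter probe set. The gene of its partner subunit, Slc3a2, rose by 0.34 (adjusted p = 0.013). Gclc, the catalytic subunit of the first enzyme of glutathione synthesis, rose by 1.74 (adjusted p = 0.0037), Gss, the second enzyme, by 0.44 (adjusted p = 0.047), and Gclm, the regulatory subunit of the first, differed by 0.50 (adjusted p = 0.17) and rose by 0.76 without Ad-Epas1 replicate 3 (adjusted p = 0.0032). Slc1a1, which carries glutamate and cysteine, fell by 1.00 (adjusted p = 0.021). Without Ad-Epas1 replicate 3, 6 of the 19 rose and 4 fell, beside 10.3% and 14.0% of all genes.

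Other users of cysteine changed in part, with 1 of 9 rising and 3 falling. For this list and the next 2, the shares over all genes were 6.57% rising and 9.75% falling. Cars, which charges the cysteine tRNA, rose by 0.57 (adjusted p = 0.010), the coenzyme A genes Pank1 (-0.67, adjusted p = 0.013) and Ppcdc (-0.31, adjusted p = 0.026) fell, and so did Iscu, the scaffold for iron-sulfur clusters (-0.26, adjusted p = 0.036). Among the partners of Got1 in the malate-aspartate shuttle, 2 of 6 fell and none rose. These were both aspartate-glutamate carriers of the mitochondrial membrane, Slc25a12 (-0.75, adjusted p = 0.0020) and Slc25a13 (-0.66, adjusted p = 0.0069), while Got2, the mitochondrial counterpart of Got1, differed by -0.11 (adjusted p = 0.27). In the short list around osmolyte uptake, to which taurine belongs, 2 of 3 rose: Nfat5, a transcription factor that in other cells drives Slc6a6, by 0.38 (adjusted p = 0.012) and the amino acid transporter gene Slc38a2 by 0.32 (adjusted p = 0.037). Without Ad-Epas1 replicate 3 all 3 rose, beside 10.3% of all genes.

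The ATF4 response, an amino acid stress programme known to include Cth, moved in both directions, with 2 of 16 rising and 8 falling. Over all genes 6.57% rose and 9.75% fell. Slc7a5, a transporter of large neutral amino acids, rose by 1.92 (adjusted p = 0.00045) and Sesn2 by 1.10 (adjusted p = 0.0015). The serine synthesis gene Phgdh (-0.99, adjusted p = 0.0027) and the asparagine synthetase gene Asns (-0.69, adjusted p = 0.0069) fell. Atf4 itself differed by 0.23 (adjusted p = 0.26), with 9.44, 9.45 and 9.02 in Ad-Epas1 replicates 1, 2 and 3, against 9.10, 9.09 and 9.04 in Mock replicates 1, 2 and 3. Like Cth, it lay below all Mock arrays on Ad-Epas1 replicate 3, and without that array it rose by 0.37 (adjusted p = 0.011). In that comparison 5 of the 16 rose and 9 fell, beside 10.3% and 14.0% of all genes.

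Of the 25 genes called and named in these lists, 10 kept their call whichever single array was left out: Asns, Gclc, Mtap, Mtr, Phgdh, Selenbp1, Sesn2, Slc25a12, Slc25a13 and Slc7a5. The other 15, which were Ado, Cars, Gss, Iscu, Mri1, Nfat5, Pank1, Papss1, Ppcdc, Pter, Slc1a1, Slc38a2, Slc3a2, Slc7a11 and Srm, lost it when either Mock replicate 2 or Mock replicate 3 was removed (largest adjusted p 0.14 in each case). Removing Ad-Epas1 replicate 2 ended 10 of these calls (largest adjusted p 0.12), removing Ad-Epas1 replicate 1 ended 7 (0.099) and removing Mock replicate 1 ended 4 (0.11), whereas removing Ad-Epas1 replicate 3 ended none.

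**Figure D3:**
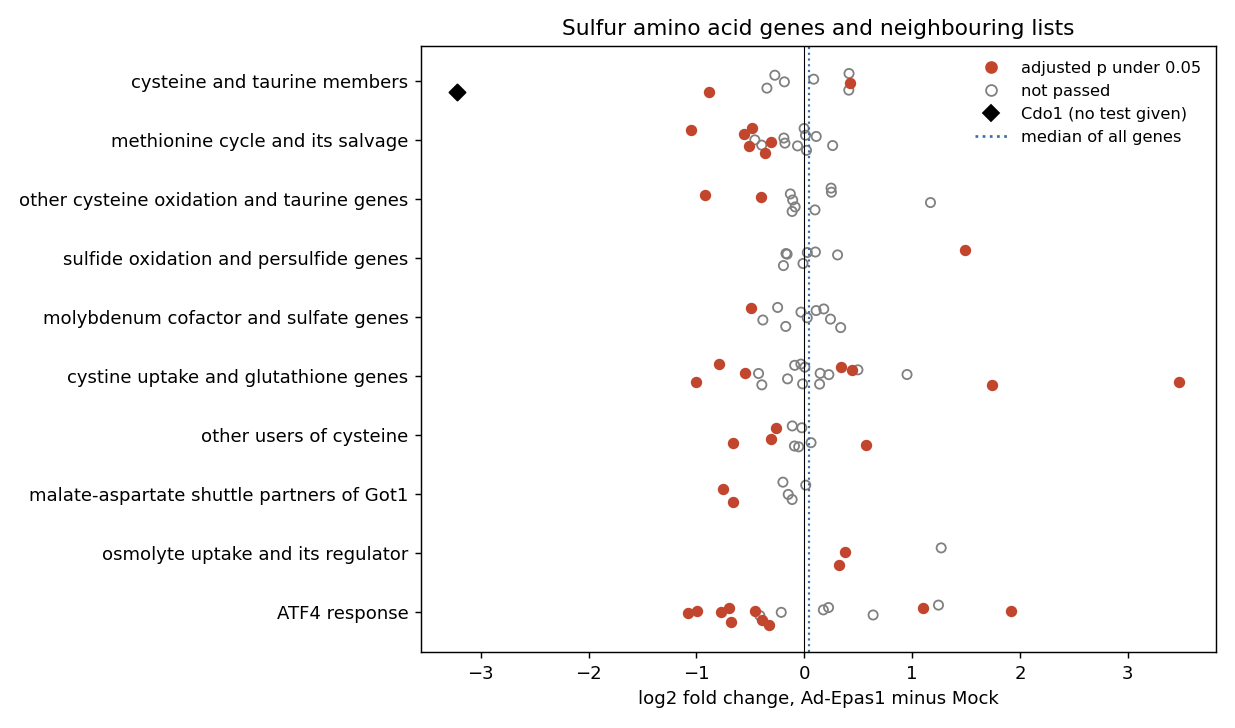
Log2 fold change, Ad-Epas1 minus Mock, of each measured gene (1 point per gene) in the cysteine and taurine set and in 9 related lists; filled points passed an adjusted p of 0.05, open points did not, the black diamond is Cdo1 with no test given, and the dotted line is the median of all genes (0.05). Slc7a11 (3.48) lies farthest to the right and Cdo1 (-3.22) farthest to the left.

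The genes whose levels over the 6 arrays ran most like those of Cdo1 were found by the root-mean-square distance between profiles, each centred on its own mean. The nearest 5 were Klhdc8a (0.20 on the log2 scale, r = 0.99), Anln (0.26, r = 0.99), Ccna2 (0.29, r = 0.99), Ect2 (0.32, r = 0.99) and Ndc80 (0.34, r = 0.99). These are descriptions over 6 arrays that share the large difference between the groups. Ccna2 encodes cyclin A, Anln and Ect2 encode cytokinesis proteins and Ndc80 a kinetochore protein. Klhdc8a, the nearest, measured 7.01, 7.21 and 8.57 in Ad-Epas1 replicates 1, 2 and 3, against 10.05, 10.97 and 11.0 in Mock replicates 1, 2 and 3. Like Cdo1, all 5 were highest within Ad-Epas1 on replicate 3 and lowest within Mock on replicate 1. They were picked for their likeness to Cdo1 on these same arrays, so this is no separate evidence of a link.

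**Figure D4:**
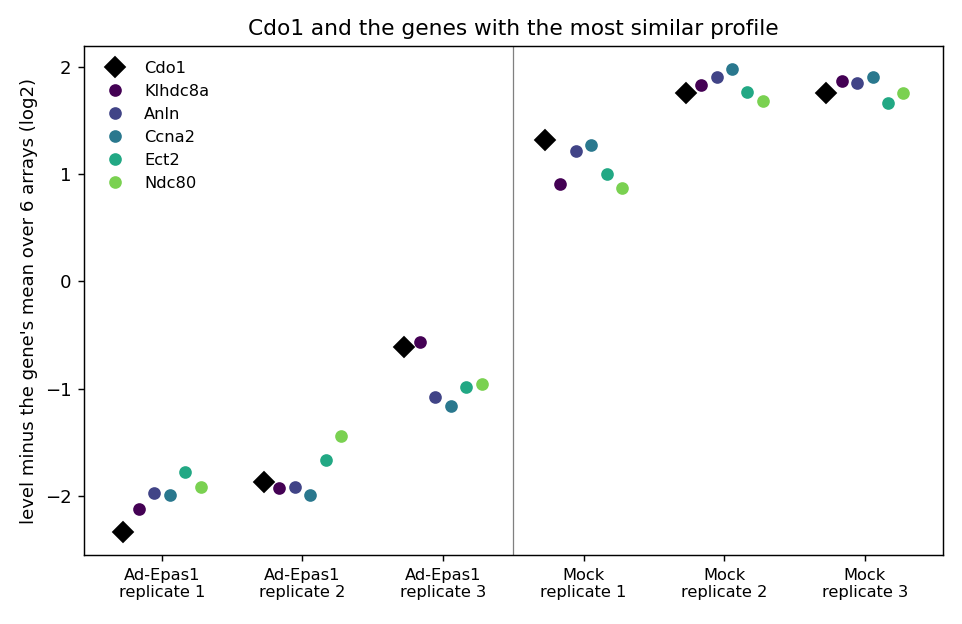
Level of Cdo1 (black diamonds) and of its 5 nearest genes (circles) on each array, as the difference from the gene's own mean over the 6 arrays (log2), with Ad-Epas1 arrays left of the vertical line and Mock arrays right of it. On Ad-Epas1 replicate 3 Cdo1 and Klhdc8a lie close together, at -0.61 and -0.57, and above the other 4 genes.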

How the data were processed

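Total RNA was measured on 6 Affymetrix arrays. The authors deposited log2 expression values for 41345 probe sets, and the submitters' processing notes name RMA and, as software, Affymetrix Expression Console with version 1.3.1. RMA's quantile step gives the arrays nearly 1 distribution, so a shift of most genes cannot be seen, and its probe summary compresses large changes. Precision is limited by the number of arrays, which carry no read depth. No genome build for the probe sets is given in the sources. Of the probe sets, 23521 had 1 gene symbol, 1814 had several and 16010 had none. A gene was read from its probe set with the highest mean (22180 genes), with no filter on level.

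Differences, Ad-Epas1 minus Mock, were tested two-sided in limma 3.58.1 under R 4.3.3 (lmFit, then eBayes), and p-values were adjusted by Benjamini-Hochberg across the 22180 genes. SE is the moderated standard error. An exact permutation test of 3 against 3 cannot go below p = 0.1. Alternative scalings, filters, priors and array sets were run. Named genes were all members, up to 4 called genes of each list by smallest p, 12 further genes whatever their p, Epas1, and the 5 genes nearest to Cdo1. Members and lists were chosen with earlier results of these data known. Of 106 listed pathway symbols, 96 were measured.

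Same-numbered arrays deviated together with correlations of 0.34, -0.19 and 0.21, so the numbers were not taken as pairs.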

Additional observations from a re-analysis of the deposited data

How the results depend on the processing

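Over all arrays 3620 genes passed. Leaving out 1 array gave 1181 to 5390 genes, 0 to 6 of the 8 members other than Cdo1 and 10 to 51 pathway genes. With Mock replicate 1 and Ad-Epas1 replicate 3 both removed, 6000 genes, 6 members and 53 pathway genes passed. With array weights the counts were 7791, 6 and 62, and without shared variance 1448, 0 and 17 (Slc6a6 then had an adjusted p of 0.063 and Got1 of 0.064). Where 0 members were called (no shared variance, or limma without Mock replicate 2), 2 had an unadjusted p under 0.05. The cause was not tested. A further quantile step, median centring, a filter at the median level and another variance prior kept Slc6a6 and Got1 as the called members. The mean over probe sets and separate probe sets did so too, but each measured member has 1 probe set. The levels of the members could not change under these settings, which are no support for the calls. The replicate block gave 3108 genes, 2 members and 35 pathway genes, and changed no member's call, while Iscu (adjusted p = 0.076), Ppcdc (0.058) and Slc38a2 (0.054) lost theirs and Ahcy gained one (0.023). Among 766 values of single named genes, 80 lost their call, 27 gained one and 3 changed sign, all of Tst, which was not called: 0.0099 with median centring, 0.13 with a further quantile step and 0.13 without Ad-Epas1 replicate 1. With arrays left out, Tst ranged from -0.14 to 0.13. The Cdo1 log2 fold change kept its sign under every alternative run. The Cdo1 groups lay 1.93 apart, so leaving out or weighting arrays could not reverse that sign. A changed prior leaves the fold change as it is. The kept sign is therefore no support for the Cdo1 difference.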
